A study of Mus musculus with 75 samples.

Results

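The Hoxb cluster on mouse chromosome 11 was followed through the restriction fragments that 4C-seq joined to either of 2 retinoic acid enhancers, Hoxb-E1 inside the cluster and Hoxb-E2 beyond its Hoxb1 end. 4C-seq ligates crosslinked DNA that lies close together in the nucleus and sequences every fragment joined to 1 chosen fragment, the bait. Members were all fragments with a start in a fixed stretch of 180 kb on chr11 (mm10) that holds the 10 Hoxb genes, from Hoxb13 to Hoxb1. The first member starts at 96190010 and the last ends at 96370014. With Hoxb-E2 they numbered 421 of 24934 chr11 fragments. With Hoxb-E1 they numbered 305 of 26326, because the 50 kb around that bait, from Hoxb8 to the Hoxb3 start, were read with Hoxb-E2 only. Together they made 427 fragments of the 40391 that were listed on chr11 with either bait.

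The series compared wild-type E14 mouse embryonic stem cells, a line from blastocyst embryos, with knockouts of the retinoic acid receptor genes Rara and Rxra. All groups used here had been taken out of LIF and the 2 kinase inhibitors and given 2 µM retinoic acid for 24 h, the WT cells included, and no untreated 4C library was analysed here. The groups were WT, the single knockouts Rara-KO and Rxra-KO, and the double knockout RARX-DKO of both receptors, with 2 libraries per bait and genotype and 16 in all. How the knockouts were made and whether a genotype is 1 clone are not given in the sources used here. The labels call the 2 libraries biological replicates without naming separate cultures, so p-values measure only the spread between these samples.

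Hox genes encode homeodomain transcription factors that give the body axis its regional identity, and the genes at the Hoxb1 end of the cluster are switched on first and nearest the head. Retinoic acid enters the nucleus and binds RARA, which pairs with RXRA on direct repeats of a short half-site in enhancers. The anterior Hoxb genes are classic retinoic acid targets in differentiating stem cells.

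Every one of the 40391 listed fragments was bounded by GATC at both ends in the GRCm38.p6 sequence, so the tables hold GATC fragments in mm10 coordinates. The labels give no bait position. The fragment with the most reads over the 8 libraries of a bait was therefore taken to mark it, and that of Hoxb-E1 is printed here with its GATC sites in capitals (plus strand). It spans chr11:96308536-96308655, between Hoxb5 and Mir10a with no annotated gene on it.
Hoxb-E1 most-read fragment: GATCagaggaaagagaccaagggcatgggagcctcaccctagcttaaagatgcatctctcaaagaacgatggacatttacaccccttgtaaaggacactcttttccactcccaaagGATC

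3 further stretches carry results given later. The first 250 bases of the member most joined to Hoxb-E2 lie at chr11:96276730-96276979, between Hoxb9 and Hoxb8, with the GATC site in capitals. The run at chr11:96226784-96226898 holds 4 members of 9 to 51 bases between 5 GATC sites, in capitals, and shows how short some members are. The stretch at chr11:96211989-96212085, between Hoxb13 and Hoxb9, holds a DR5 repeat whose half-sites are in capitals. All 3 are intergenic and are printed on the plus strand.
Member beside Hoxb9: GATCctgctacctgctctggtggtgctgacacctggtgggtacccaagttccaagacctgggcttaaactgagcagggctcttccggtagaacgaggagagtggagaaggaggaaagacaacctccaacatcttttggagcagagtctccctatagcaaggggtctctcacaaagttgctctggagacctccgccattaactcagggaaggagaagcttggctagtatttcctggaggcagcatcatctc
Run of short members: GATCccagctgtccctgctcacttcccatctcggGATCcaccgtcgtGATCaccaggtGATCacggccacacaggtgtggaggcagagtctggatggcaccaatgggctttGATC
DR5 stretch: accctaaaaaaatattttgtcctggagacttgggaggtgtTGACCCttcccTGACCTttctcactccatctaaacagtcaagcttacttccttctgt

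Reads per library on chr11 ran from 21404993 to 34118736 with Hoxb-E1 and from 2016623 to 30159479 with Hoxb-E2, and a share below is a percent of those reads. The lowest total belonged to RARX-DKO replicate 2 of Hoxb-E2, which also had the fewest members with reads (179, against 245 to 365 in the other Hoxb-E2 libraries). The part of a library that fell on chr11 moved with genotype in both baits: 63.4% to 64.9% in WT, 57.6% to 60.2% in Rara-KO, 71.4% to 72.3% in Rxra-KO and 57.1% to 60.8% in RARX-DKO. Its part in the results was not tested. Neighbouring members often carried nearly the same count: of pairs that share a GATC site and hold 100 or more reads, 27.1% with Hoxb-E1 and 28.2% with Hoxb-E2 were within 10% of each other, so members are not independent of one another. No pair of libraries was alike within counting error: the variance between replicates over chr11 windows was 3041 to 6704 times that expected from counting alone.

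In WT cells the shares of the Hoxb-E2 bait were higher in the middle of the cluster than at its nearer end. Reads were summed in fixed windows of 10 kb, and the window with the Hoxb5 start, which also holds the Hoxb-E1 fragment, ranked first with shares of 1.02% and 1.31%. The Hoxb9 window followed with 1.09% and 0.895%, then the Hoxb6 window with 0.923% and 0.804%, the window of Hoxb8 and Hoxb7 with 0.458% and 0.803%, and the window of the Hoxb3 gene body nearer its start with 0.612% and 0.535%. Those 5 were the highest by WT mean. The lowest was the window from 96230001 with 0.112% and 0.0854%, and the next lowest the window from 96200001 with 0.205% and 0.0457%, both in the gene-poor stretch between Hoxb13 and Hoxb9.

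Per 10 kb, the stretch from Hoxb8 to the Hoxb3 start held 0.612% and 0.677% of WT reads, and the nearer stretch from the Hoxb3 body to Hoxb1 held 0.380% and 0.329%. The farther stretch was 1.61 and 2.06 times as high in WT, 1.43 and 1.8 times in Rxra-KO, and 1.19 and 1.30 times in RARX-DKO. In Rara-KO the 2 libraries disagreed, with 0.750 in replicate 1 and 2.47 in replicate 2. The order therefore held in 7 of 8 libraries, and since the stretches were drawn with the profile in view it was not tested.

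**Figure D1:**
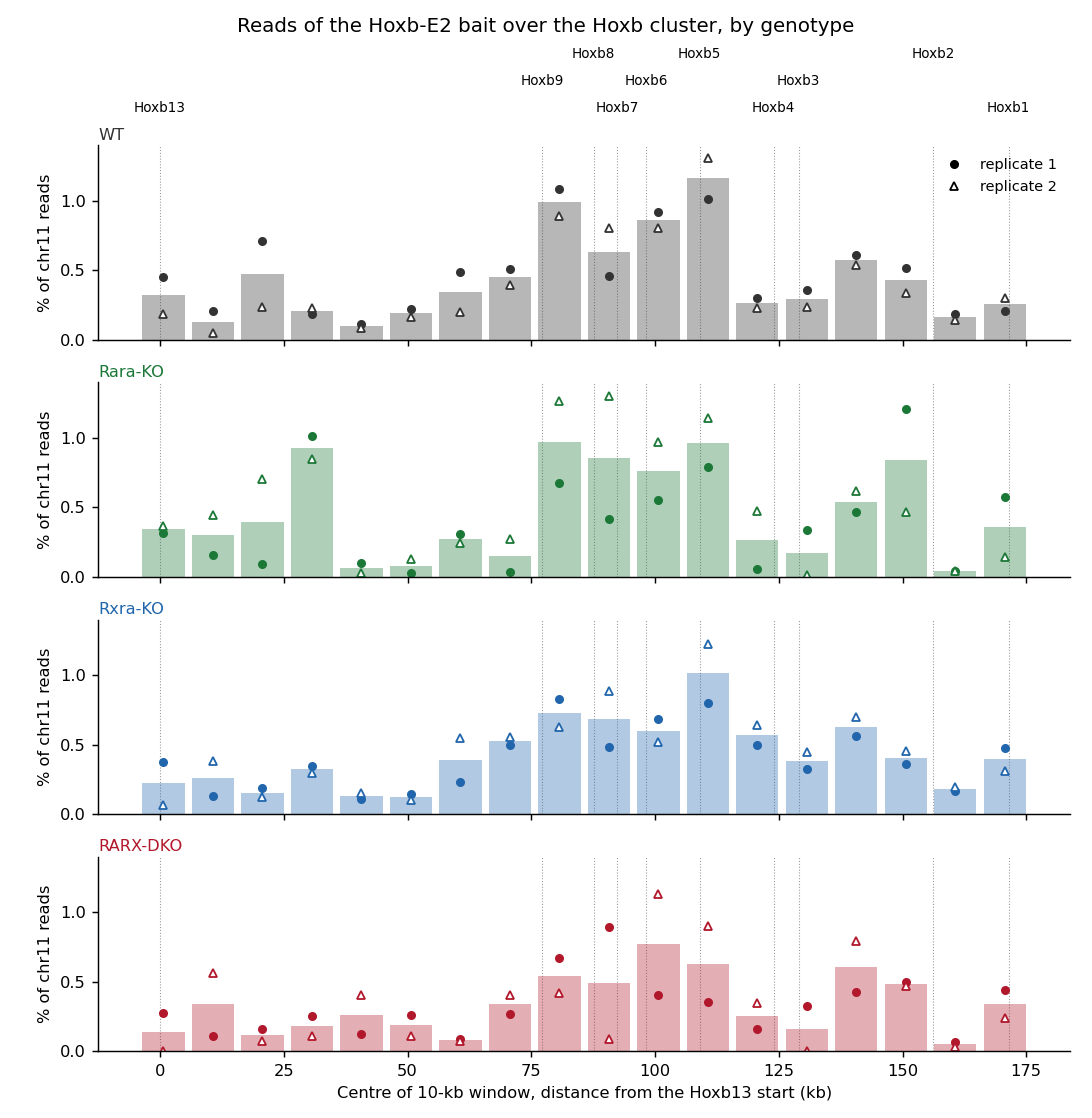
Share of chr11 reads of the Hoxb-E2 bait (y axis, percent) in the 18 windows of 10 kb of the Hoxb cluster, placed by distance from the Hoxb13 start in kb, with 1 panel per genotype. Bars are means of 2 libraries, symbols are the libraries, dotted lines are Hoxb gene starts; the WT bars peak at Hoxb9 and at Hoxb5 (1.02% and 1.31%) and are low on both sides.

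The most-joined member of Hoxb-E2 was read in every library. It lies in the intergenic DNA after Hoxb9 (chr11:96276733-96277199, 467 bp, the member whose first bases are printed above) and belongs to the Hoxb9 window. Its shares were 0.296% and 0.285% in WT, 0.402% and 0.345% in Rara-KO, 0.236% and 0.211% in Rxra-KO, and 0.196% and 0.290% in RARX-DKO. It had reads in all 8 libraries, as did 86 of the 421 Hoxb-E2 members. Against WT its log2 fold changes were 0.36 in Rara-KO, -0.38 in Rxra-KO and -0.26 in RARX-DKO, with standard errors of 2.1 to 2.11 and adjusted p of 1 in each (edgeR's quasi-likelihood test). The next fragment, chr11:96277202-96277600 of 399 bp, was the fifth and was also read in all 8, at 0.0776% to 0.226%.

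The next 2 in mean share were adjoining fragments on Hoxb8 (chr11:96282752-96283263 and chr11:96283266-96284266), whose shares were the same to 3 digits in every library. Each had 0.116% and 0.247% in WT, 0.156% and 0.50% in Rara-KO, and 0.0993% and 0.206% in Rxra-KO. In RARX-DKO they had 0.000101% and no reads. Both RARX-DKO libraries lay below the other 6, and the adjusted p against WT was 0.884 in edgeR's test over 13561 fragments (unadjusted p = 0.0017). With the replicate number as a block both were called (log2 fold change -11.4 and an adjusted p of 1.2e-05 each, edgeR), and they made up all calls of that fit (0.0147% of the fragments). Same-numbered replicates did not deviate together over chr11 windows with this bait (correlations of -0.014 to 0.008). Most of those windows lacked reads in several libraries, so the correlations do not settle whether that block is needed. Replicate 1 had more chr11 reads than replicate 2 in every genotype, with 27734141 and 10262603 in WT and 14781789 and 2016623 in RARX-DKO. As the 2 fragments had nearly the same counts, the 2 calls are not independent. The fourth, on the Hoxb7 coding sequence (chr11:96287105-96287240), went the other way in one RARX-DKO library, with 0.395% in replicate 1 and none in replicate 2. The sixth, over the 3′ end of Hoxb9, had 0.274% and 0.118% in WT and ran from 0 in RARX-DKO replicate 2 to 0.248% in Rara-KO replicate 2.

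The fragment of the Hoxb-E1 bait was itself a member in the Hoxb-E2 libraries and was read unevenly. Its shares were 5.41e-05% and 0.0623% in WT, 0.210% and 0.0702% in Rara-KO, 0.0676% and 0.0838% in Rxra-KO, and 9.47e-05% and 0.00203% in RARX-DKO. Both RARX-DKO libraries were low, and so was WT replicate 1, so the groups overlapped. The 10-kb window around it was steadier, with 0.792% and 1.14% in Rara-KO, 0.800% and 1.23% in Rxra-KO, and 0.353% and 0.899% in RARX-DKO. Both RARX-DKO values lay below both WT values there (log2 fold change -0.89 ± 0.69 SE, adjusted p = 0.661, edgeR).

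Over the whole cluster, the Hoxb-E2 bait gave its lowest shares in RARX-DKO. The members together held 8.56% and 7.14% of chr11 reads in WT, 7.18% and 9.49% in Rara-KO, 7.17% and 8.20% in Rxra-KO, and 5.76% and 6.13% in RARX-DKO. Both RARX-DKO libraries lay below the other 6, and 1 of them was the library with the lowest total. With the cluster as 1 of 631 regions of 180 kb tiled over chr11, the log2 fold change of RARX-DKO was -0.40 ± 0.16 (SE) against WT (unadjusted p = 0.0102, adjusted p = 0.505), -0.49 ± 0.16 against Rara-KO (adjusted p = 0.383) and -0.37 ± 0.16 against Rxra-KO (adjusted p = 0.489), in edgeR's quasi-likelihood test. None passed the threshold of 0.05. The median over all regions was -0.38 against WT, 0.00 against Rara-KO and -0.09 against Rxra-KO, so against WT the cluster's value was close to that of the median region. The DNA beside the cluster did not fall with it. Per 10 kb, the 180 kb after it held 0.988% and 1.04% in RARX-DKO against 0.780% and 0.712% in WT. The 180 kb before it held 0.162% and 0.173% against 0.114% and 0.165%. The contrasts share the RARX-DKO libraries, and those of the 3 mutants with WT share the WT libraries. With DESeq2's scaling, which moved the median over all regions against WT by 0.33, the cluster stood at -0.03. Without Rara-KO replicate 1 the contrast with Rara-KO did pass, at -0.67 with an adjusted p of 0.0179. When fragments with reads were counted in place of reads, scaled to each library's listed chr11 fragments, the sign against WT turned to 0.33. Before that scaling, members with reads were fewer in RARX-DKO (281 and 179) than in WT (349 and 327).

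The other contrasts of Hoxb-E2 were smaller. Rara-KO stood at 0.09 ± 0.16 and Rxra-KO at -0.03 ± 0.16 against WT (log2 fold change and SE, adjusted p = 0.954 and 0.998, edgeR). With Hoxb-E1 the members outside the 50-kb gap held 11.5% and 10.7% in WT, 8.0% and 11.5% in Rara-KO, 11.1% and 10.9% in Rxra-KO, and 11.2% and 9.84% in RARX-DKO. Those groups overlapped, and the log2 fold changes of Rara-KO, Rxra-KO and RARX-DKO against WT were -0.19, -0.01 and -0.07 with an SE of 0.21 each (adjusted p of 0.794 to 1, edgeR over 648 regions). A p above the threshold does not show that the shares were alike. Called regions over chr11 made up 0.158% of those tested in RARX-DKO against WT with Hoxb-E2, and the cluster was not the 1 called; they made up 0% in all other region contrasts of both baits.

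**Figure D2:**
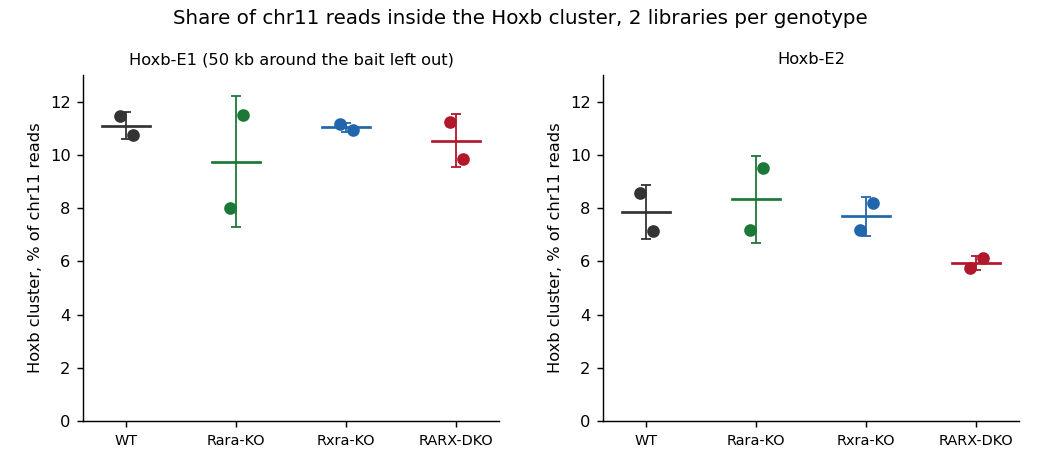
Percent of chr11 reads inside the Hoxb cluster (y axis) for each library, by genotype, with Hoxb-E1 at left and Hoxb-E2 at right. Points are libraries, horizontal lines means and bars 1 SD (n = 2); with Hoxb-E2 the RARX-DKO libraries, at 5.76% and 6.13%, lie below the other 6.

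From Hoxb-E1 the windows of the Hoxb3 gene body had the highest WT means outside the 50 kb left out around the bait, and those of Hoxb13 and Hoxb9 came next. The 2 windows of the Hoxb3 body held 2.42% and 1.64%, and 2.58% and 0.927%. The Hoxb13 window, at the opposite end of the cluster, held 1.06% and 1.8%, the Hoxb9 window 1.36% and 1.42%, and the Hoxb2 window 1.06% and 1.2%. Those were the 5 highest by WT mean. The place of Hoxb13 before Hoxb9 rested on WT replicate 2, and within 5 kb of the gene starts Hoxb9 was the higher (mean 1.54% against 1.43%). The lowest were the fourth window of the cluster, with 0.0112% and 0.0597%, and the one after it (from 96230001), with 0.146% and 0.184%. So the Hoxb13 window, which is farther from Hoxb-E1, stood above every window between it and Gm53 in both WT libraries.

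The single fragments showed the Hoxb3 body too. The highest mean shares with Hoxb-E1 were those of 2 adjoining fragments in Hoxb3, chr11:96342892-96343497 and chr11:96343500-96343553. The first had 0.675% and 0.116% in WT, 0.181% and 1.16% in Rara-KO, 0.334% and 1.03% in Rxra-KO, and 0.541% and 0.0518% in RARX-DKO. Replicates of every genotype differed more than the means of the genotypes did. Of the other 4 highest, 3 lay in Hoxb3 introns and 1 over the 3′ end of Hoxb9, and the adjusted p of all 6 was 0.899 or more in each contrast with WT (edgeR).

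**Figure D3:**
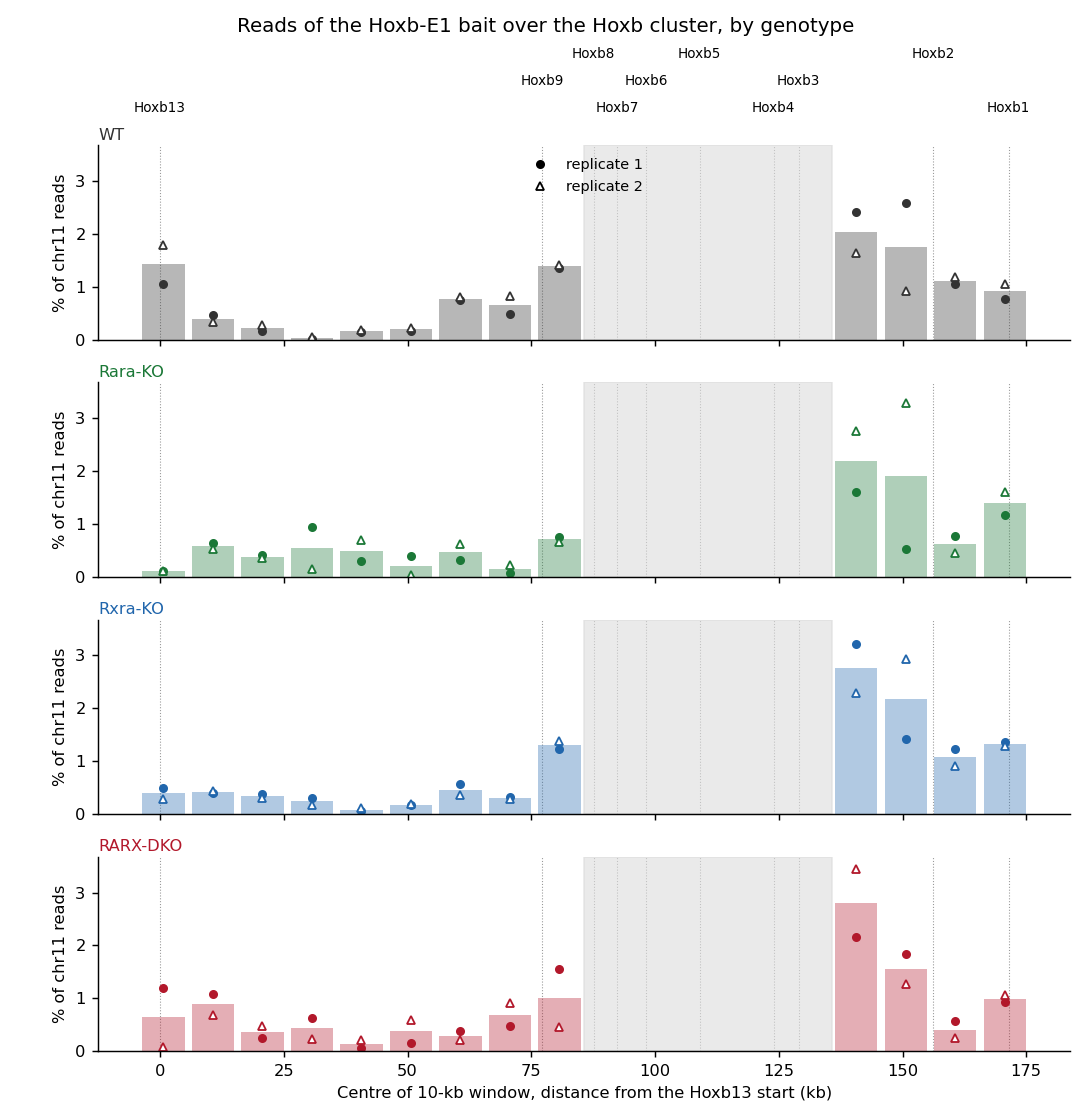
Share of chr11 reads of the Hoxb-E1 bait (y axis, percent) in 13 windows of 10 kb, placed by distance from the Hoxb13 start in kb, with 1 panel per genotype. Bars are means of 2 libraries, symbols are the libraries, dotted lines are Hoxb gene starts and grey marks the 50 kb left out around the bait; the Hoxb13 bar is high in WT (1.06% and 1.8%) and low in Rara-KO (0.105% in both).

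Hoxb13, the most posterior gene of the cluster, had the lowest p of any cluster window with Hoxb-E1. Its window held 1.06% and 1.8% in WT, 0.105% and 0.105% in Rara-KO, 0.489% and 0.289% in Rxra-KO, and 1.20% and 0.0834% in RARX-DKO. Both Rara-KO and both Rxra-KO libraries lay below both WT libraries, while RARX-DKO had 1 library inside the WT range. In Rara-KO the log2 fold change was -3.77 ± 1.27 (SE), with an unadjusted p of 0.00297 and an adjusted p of 0.975 in edgeR over the 3624 windows of chr11. In a fit on the 196 windows within 1 Mb of the bait, added after the data were seen, the same fold change had an SE of 0.90 and an adjusted p of 0.00602. There it was 1 of 2 calls (1.02% of the windows).

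The call in the narrower fit depended on the libraries used. Leaving out WT replicate 2 gave an adjusted p of 0.323, leaving out Rara-KO replicate 1 gave 0.0982 (edgeR), and leaving out WT replicate 1 or Rara-KO replicate 2 gave 0.0391 and 0.0331. Counting fragments with reads in place of reads, scaled to each library's listed chr11 fragments, turned the sign to 0.08. In Rxra-KO and RARX-DKO the window did not pass in that fit (edgeR, adjusted p = 0.832 and 0.996). Within the window the 2 WT libraries had their reads on different fragments: chr11:96194602-96195309 had 0.454% in WT replicate 1 and 0.132% in replicate 2, and chr11:96195427-96195851 had 0.0187% and 0.464%. From Hoxb-E2 the same window held 0.454% and 0.189% in WT, 0.319% and 0.365% in Rara-KO, 0.377% and 0.0669% in Rxra-KO, and 0.271% and 0.00149% in RARX-DKO, and the groups overlapped.

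The fourth window of the cluster, between Hoxb13 and Hoxb9, which holds no gene start, went the opposite way with Hoxb-E1. It held 0.0112% and 0.0597% in WT, 0.942% and 0.150% in Rara-KO, 0.306% and 0.175% in Rxra-KO, and 0.628% and 0.225% in RARX-DKO. All 6 mutant libraries lay above both WT libraries. The log2 fold changes were 3.95 ± 1.74 in Rara-KO (adjusted p = 0.975), 2.76 ± 1.65 in Rxra-KO (adjusted p = 0.770) and 3.59 ± 1.71 in RARX-DKO (adjusted p = 0.537) in edgeR over chr11. In the fit near the bait edgeR's adjusted p were 0.154, 0.832 and 0.398, and the Rara-KO difference passed there without Rara-KO replicate 2 (log2 fold change 4.73, adjusted p = 0.0233). Counted by fragments with reads, scaled to each library's listed chr11 fragments, the sign in Rara-KO turned to -0.29.

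With Hoxb-E2 the fourth window was highest in Rara-KO, at 1.02% and 0.848%, against 0.182% and 0.230% in WT, 0.348% and 0.297% in Rxra-KO, and 0.249% and 0.105% in RARX-DKO. Both Rara-KO libraries lay above the other 6 (log2 fold change against WT 2.18 ± 1.15, adjusted p = 0.799, edgeR). This window holds the run of short members printed above, and with Hoxb-E1 those of 9, 11, 32 and 51 bases had 0.130% each in Rara-KO replicate 1. Whether the same reads were counted in several members was not tested. With fragments under 100 bases left out, the log2 fold changes in Rara-KO were 2.71 with Hoxb-E1 and 1.82 with Hoxb-E2 (edgeR, adjusted p = 0.956 and 0.798).

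**Figure D4:**
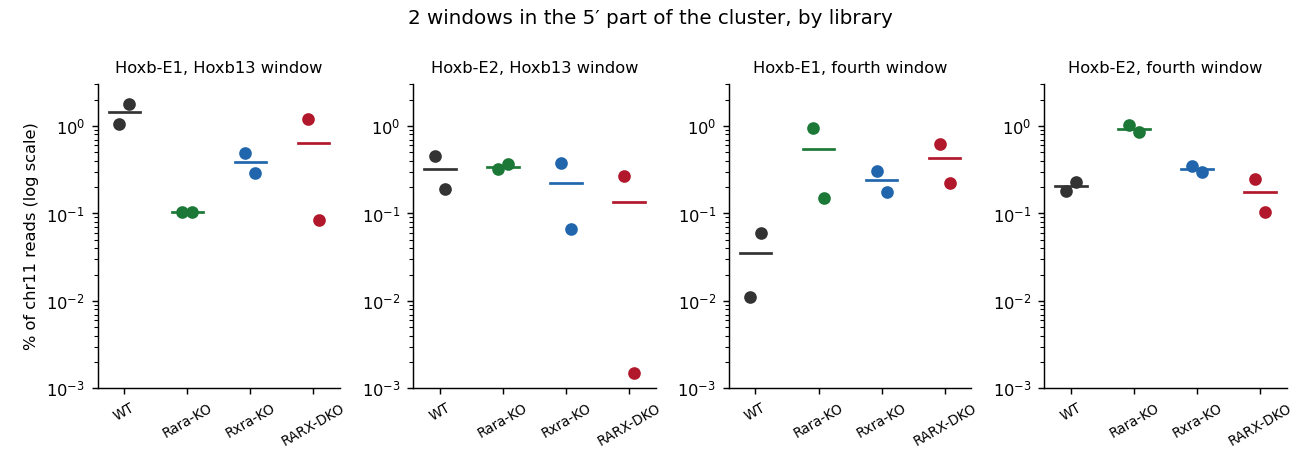
Percent of chr11 reads (y axis, log scale) in the Hoxb13 window (2 left panels) and in the fourth window of the cluster (2 right panels), for each bait, by genotype. Points are libraries and lines means of 2; with Hoxb-E1 the Hoxb13 window holds 1.06% and 1.8% in WT and 0.105% in both Rara-KO libraries, and the fourth window is lowest in WT.

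Across all windows no difference from WT passed the threshold. Of the 13 windows of Hoxb-E1 and the 18 of Hoxb-E2, 0 were called in Rara-KO, Rxra-KO or RARX-DKO by edgeR's adjusted p, against a background of 0% of the 3624 and 3852 windows of chr11. At an unadjusted p under 0.05, Hoxb-E1 had 2 of its 13 windows in Rara-KO, 0 in Rxra-KO and 1 in RARX-DKO, where 1.19%, 0.855% and 1.13% of chr11 windows had it. Hoxb-E2 had 0 in each, where 0.675%, 0.312% and 0.805% had it. DESeq2 on the same counts called 2, 1 and 2 cluster windows with Hoxb-E1, against 24.6%, 30% and 44.3% of chr11 windows. With Hoxb-E2 it called 1, 0 and 1, against 35.6%, 40.4% and 44.2%. Its dispersion estimate stood at its upper limit of 10 in 67.4% of the windows of Hoxb-E1 and 75.9% of those of Hoxb-E2. No cluster window was at that limit.

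Single members did not pass either. Of the 290 Hoxb-E1 members and 403 Hoxb-E2 members that averaged at least 10 reads per library, 0 were called in any contrast with WT by edgeR, as were 0% of the 12063 and 13561 chr11 fragments tested. At an unadjusted p under 0.05, Hoxb-E1 members were 7 up and 2 down in Rara-KO, 0 and 2 in Rxra-KO, and 9 and 2 in RARX-DKO. Both directions together made 3.1%, 0.69% and 3.79% of the members tested, where 1.04%, 0.904% and 1.24% of chr11 fragments had such a p. Hoxb-E2 members were 2 up and 2 down in Rara-KO, 2 and 2 in Rxra-KO, and 0 and 11 in RARX-DKO. Together they made 0.993%, 0.993% and 2.73%, where 0.937%, 0.324% and 0.988% of chr11 fragments had it. DESeq2 called 16, 21 and 28 Hoxb-E1 members (5.52%, 7.24% and 9.66%), a lower share than the 20.8%, 22.9% and 40.1% of chr11 fragments. It called 64, 29 and 96 Hoxb-E2 members (15.9%, 7.2% and 23.8%), also a lower share than the 26.7%, 31.9% and 37.7% of chr11 fragments. The members that passed the filter on reads include those read in 1 group only, so their counts support no direction.

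Windows whose 2 mutant libraries both lay on 1 side of both WT libraries were common near the bait. With Hoxb-E1, Rara-KO had 5 cluster windows above and 5 below WT of 13, where 4.88% and 6.73% of chr11 windows, and 16.8% and 15.8% of those within 1 Mb of the bait, did the same. Those above were the 4 windows next to that of Hoxb13 and the window of Hoxb1, and those below were the windows of Hoxb13, Gm53, Mir196a-1, Hoxb9 and Hoxb2. With Hoxb-E2, RARX-DKO had 1 window above and 5 below of 18, where 2.91% and 9.48% of chr11 windows, and 13.3% and 27.2% of those near the bait, did. Rxra-KO had 3 above and 4 below with Hoxb-E1 (3.84% and 8.17% of chr11 windows, 10.7% and 16.8% near the bait) and 3 above and 4 below with Hoxb-E2 (7.35% and 6.93%, 17.9% and 15.4%). RARX-DKO with Hoxb-E1 had 2 above and 2 below (7.53% and 7.59%, 16.3% and 15.3%). Rara-KO with Hoxb-E2 had 1 above and 3 below (2.65% and 8.75%, 7.18% and 24.1%).

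The Hoxb2 window lay below WT in both RARX-DKO libraries with either bait. With Hoxb-E1 it held 1.06% and 1.2% in WT and 0.569% and 0.238% in RARX-DKO (log2 fold change -1.47 ± 1.05, adjusted p = 0.537, edgeR). With Hoxb-E2 it held 0.183% and 0.144% in WT, 0.0418% and 0.0424% in Rara-KO, and 0.0670% and 0.0257% in RARX-DKO (-1.96 ± 2.53 and -1.82 ± 2.52, adjusted p = 0.874 and 0.892, edgeR). Within 5 kb of the Hoxb2 start only part of this held. There RARX-DKO overlapped WT with Hoxb-E1, at 0.800% and 0.974% against 1.51% and 0.874%. With Hoxb-E2, WT had 0.340% and 0.253% there. RARX-DKO lay below that, at 0.140% and 0.228%, and Rara-KO overlapped it, at 0.224% and 0.466%. In Rara-KO the Hoxb9 window of Hoxb-E1 lay below WT, at 0.755% and 0.667% against 1.36% and 1.42% (-0.97 ± 0.91, adjusted p = 1, edgeR).

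Replicates of Rara-KO and RARX-DKO lay farther apart than those of WT and Rxra-KO. The median fold between the 2 replicates over cluster windows with Hoxb-E1 was 1.40 in WT, 1.73 in Rara-KO, 1.36 in Rxra-KO and 1.91 in RARX-DKO. With Hoxb-E2 it was 1.35, 2.69, 1.40 and 2.42, and the largest, in RARX-DKO, was 182-fold. That was the Hoxb13 window, with 30 reads in RARX-DKO replicate 2. The Hoxb-E2 libraries with the fewest chr11 reads were RARX-DKO replicate 2 (2016623) and Rara-KO replicate 2 (4474573). The part of depth in this spread was not tested. The median fold between the means of mutant and WT over the same windows was 1.65 in Rara-KO, 1.45 in Rxra-KO and 1.55 in RARX-DKO with Hoxb-E1, and 1.39, 1.33 and 1.57 with Hoxb-E2. Those of Rara-KO and RARX-DKO were smaller than the fold between their own replicates with either bait. They were larger than the fold between the WT replicates. That of Rxra-KO exceeded the fold between replicates of both Rxra-KO and WT with Hoxb-E1 and neither with Hoxb-E2. The 2 kinds of fold are unlike, because means of 2 libraries vary less than single libraries, so their order alone decides nothing. Across single members with reads in both replicates, the median fold between replicates was 2.69 to 9.75.

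With the 50 kb around Hoxb-E1 left out for that bait, the cluster was joined more than the DNA on its Hoxb13 side and less than that on its Hoxb1 side. Per 10 kb, its 13 windows outside that gap held 0.616% to 0.883% of chr11 reads over the 8 Hoxb-E1 libraries, against 0.183% to 0.269% in the 180 kb before the cluster and 0.888% to 1.36% in the 180 kb after it. With Hoxb-E2 the cluster held 0.320% to 0.527%, against 0.114% to 0.219% before it and 0.712% to 1.04% after it, on the side of the bait. With either bait the range of the cluster lay above that of the 180 kb before it and below that of the 180 kb after it, with no overlap. With Hoxb-E1 this order is that of the 13 windows alone, because the windows nearest the bait were not counted. By the q-values in the authors' deposited table, 0 to 10 members per library were under 0.05 with Hoxb-E1 and 2 to 10 with Hoxb-E2. Summed over the 8 libraries, those were 38 of 2129 entries of members (1.78%) with Hoxb-E1, where 0.376% of the 60400 chr11 entries outside the bait windows were under it in the authors' deposited table. With Hoxb-E2 they were 44 of 2413 (1.82%), against 0.549% of 51503. How distance from the bait enters those q-values is not given in the sources used here.

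Direct repeats of retinoic acid receptor half-sites were found in 5 places of the cluster. The canonical half-site AGGTCA was searched on both strands as a repeat spaced by 1, 2 or 5 bases (DR1, DR2 and DR5). The search also took AGTTCA as a half-site. It took the form GGGTCA too, and the last form taken was written GGTTCA. DR1 matched in 2 of the 18 windows (11.1%), DR2 in 1 (5.56%) and DR5 in 2 (11.1%), where 7.45%, 11.4% and 3.71% of the 11873 chr11 windows of that length held a match. The DR5 printed above (chr11:96212029-96212045, minus strand) lies in a 1032-bp member between Hoxb13 and Hoxb9. That member had 0.200% and 1.95e-05% of Hoxb-E2 reads in WT and 0.00919% and 0.0158% of Hoxb-E1 reads, so its contact was not stable between replicates. The DR2 match, between Hoxb2 and Hoxb1, lies in a 125-bp member that the reference masks as repeat over its whole length. A match is a description of letters and not a bound site.

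The RNA of the Hoxb genes was measured in 8 further libraries of the same genotypes and treatment, with 7408691 to 13052102 counts each. The knockout labels were checked first. Rara stood at 100.5 and 107.9 CPM (counts scaled to a fixed library total) in WT and at 4.40 to 6.47 in the 4 libraries labelled Rara-KO or RARX-DKO, so that label was borne out by the level. Rxra was lower than in WT but still read: it had 38.4 and 45.7 CPM in WT, 18.3 and 15.9 in Rxra-KO (log2 fold change -1.29, adjusted p = 0.0264, edgeR) and 13.7 and 27.4 in RARX-DKO (-1.04, adjusted p = 0.0654, edgeR). Which part of Rxra was deleted is not given in the sources used here, so its level does not settle whether those libraries lack the receptor. Of the 4 markers of feeder fibroblasts (Col1a1, Col1a2, Thy1, Col3a1), Col3a1 was at 0 in all 8 libraries. The 4 summed to 6.56 to 6.63 CPM in WT, 8.80 to 11.9 in Rara-KO, 4.80 to 6.14 in Rxra-KO and 13.8 to 15.5 in RARX-DKO. In RARX-DKO 2 of them lay above both WT libraries and 1 below. Thy1 had 1.85 and 2.44 CPM in WT and 8.20 and 9.70 in RARX-DKO. In whole cultures fewer cells of a type and less RNA per cell cannot be told apart.

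Several Hoxb genes had less RNA in both libraries of Rara-KO, Rxra-KO and RARX-DKO than in either WT library, though none passed in Rara-KO. Of the 10 genes tested, 0 passed in Rara-KO, 2 fell in Rxra-KO and 3 fell in RARX-DKO (edgeR's adjusted p under 0.05), and none rose. Over all 16445 genes 0.255%, 1.2% and 1.19% fell, and 0.389%, 1.28% and 1.05% rose. The median log2 fold changes of the 10 Hoxb genes were -1.04, -1.5 and -1.85, against 0.00, -0.01 and 0.01 over all genes. The 2 RARX-DKO libraries differed, and each Hoxb gene had less RNA in replicate 1 than in replicate 2. Hoxb2 had 1.71 and 13.7 CPM there, and Hoxb4 had 2.39 and 12.4. The RARX-DKO median was -3.84 without replicate 2 and -1.24 without replicate 1. Hoxb1, the most anterior gene of the cluster, had 16.6 and 16.4 CPM in WT, 3.22 and 2.97 in Rara-KO and 5.32 and 5.76 in Rxra-KO. It had 0 and 2.56 in RARX-DKO (adjusted p = 0.0423, edgeR). With the replicate number as a block it no longer passed in RARX-DKO (adjusted p = 0.0601, edgeR), which left 2 called Hoxb genes there. Hoxb6 fell in both Rxra-KO and RARX-DKO (log2 fold change -3.29 and -3.42, adjusted p = 0.0373 and 0.0362), and so did Hoxb9 (-1.31 and -1.33, adjusted p = 0.0428 and 0.0440). With either WT library left out, 0 Hoxb genes passed in Rxra-KO or RARX-DKO, and without either Rxra-KO library 0 passed in Rxra-KO. Without RARX-DKO replicate 2, 9 passed in RARX-DKO. DESeq2 called 1 in each, where 1.72% and 1.54% of all genes fell. Of 15 neighbouring genes tested within 500 kb of the cluster, 0, 1 and 0 passed in Rara-KO, Rxra-KO and RARX-DKO. Hoxb5, Hoxb6, Hoxb3 and Hoxb2 overlap antisense genes, and whether counting used the strand is not given in the sources used here.

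Markers of pluripotent cells moved with genotype. The 5 markers Pou5f1, Sox2, Nanog, Zfp42 and Esrrb summed to 2821 to 2833 CPM in WT, 3641 to 4376 in Rara-KO, 3485 to 3618 in Rxra-KO and 4115 to 4386 in RARX-DKO. Both RARX-DKO libraries lay above both WT libraries for 5 of the 5, and those of Rara-KO and Rxra-KO for 4 each; Nanog lay below WT in Rxra-KO. Nanog passed in Rara-KO (log2 fold change 1.06, adjusted p = 0.0220), and Sox2 and Zfp42 in Rxra-KO (0.69 and 0.64, adjusted p = 0.0295 and 0.0259) and RARX-DKO (0.97 and 1.14, adjusted p = 0.00611 and 0.000954), in edgeR's test. Markers of primitive endoderm, an early lineage that retinoic acid also promotes, moved with genotype too. The 4 markers Gata4, Gata6, Sox17 and Sox7 summed to 75.1 to 76.4 CPM in WT, 29.8 to 37.8 in Rara-KO, 110 to 115 in Rxra-KO and 17.8 to 22.9 in RARX-DKO. Both RARX-DKO libraries lay below both WT libraries for 4 of the 4 and both Rara-KO libraries for 3, while both Rxra-KO libraries lay above WT for 4. The 4 neuroectoderm markers Pax6, Sox1, Nes and Tubb3 summed to 42.2 to 46.8 CPM in WT and 60.1 to 66.0 in Rara-KO. They summed to 47.5 to 71.2 in Rxra-KO and 69.4 to 94.5 in RARX-DKO. In Rara-KO 2 of them lay above both WT libraries and 2 below, and in RARX-DKO 2 above and 1 below. The 3 of mesoderm (T, Mixl1, Eomes) summed to 13.4 to 15.4 in WT, 14.6 to 16.4 in Rara-KO, 14.5 to 26.6 in Rxra-KO and 9.34 to 12.0 in RARX-DKO. The part of these kinds of cell in the Hoxb results was not tested.

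Beside that RNA, reads of the Hoxb-E2 bait within 5 kb of a gene start were as follows. At Hoxb1 they were 0.240% and 0.269% in WT and 0.291% and 0.226% in RARX-DKO (log2 fold change 0.02 ± 1.68, adjusted p = 1, edgeR). At Hoxb6 they were 0.270% and 0.265% in WT, 0.371% and 0.343% in Rxra-KO, and 0.366% and 0.311% in RARX-DKO. The log2 fold changes at Hoxb6 were 0.42 ± 1.67 (SE) in Rxra-KO and 0.34 ± 1.67 in RARX-DKO. Near the starts RARX-DKO thus overlapped WT at Hoxb1 and lay above it at Hoxb6, within the standard error. The 10-kb window with the Hoxb6 start went otherwise. Rxra-KO, at 0.686% and 0.516%, lay below both WT values there, 0.923% and 0.804%. RARX-DKO, at 0.406% and 1.13%, lay on either side of them.

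Within 5 kb of the Hoxb8 start the RARX-DKO libraries, at 0.186% and 0.175%, lay below both WT values, 0.467% and 0.726% (log2 fold change -1.72 ± 1.32, adjusted p = 0.697, edgeR). In the 10-kb window of Hoxb8 and Hoxb7 they did not, at 0.892% and 0.0854% against 0.458% and 0.803% in WT. At the Hoxb5 start the RARX-DKO libraries were at 0.420% and 1.54% against 1.67% and 1.54% in WT (-0.71 ± 0.92, adjusted p = 0.831, edgeR). At Hoxb9 they were 0.519% and 0.413% against 0.880% and 0.586%. Of the 10 Hoxb starts with Hoxb-E2 and the 4 outside the gap with Hoxb-E1, 0 were called in any mutant, as were 0% of the 778 and 676 starts tested on chr11. With a library left out, 2 starts passed in edgeR's test: Hoxb7 in RARX-DKO without RARX-DKO replicate 1 (adjusted p = 0.0092) and Hoxb9 in Rara-KO without Rara-KO replicate 2 (adjusted p = 0.0293). In WT the Hoxb5 start had the highest share with Hoxb-E2 (1.61% ± 0.09 SD, n = 2), then Hoxb9 (0.733% ± 0.208), Hoxb7 (0.639% ± 0.241) and Hoxb8 (0.596% ± 0.183), and the last 3 did not differ beyond their spread. The other 6 starts had means of 0.250% to 0.324%, and starts closer than 10 kb to each other share reads.

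**Figure D5:**
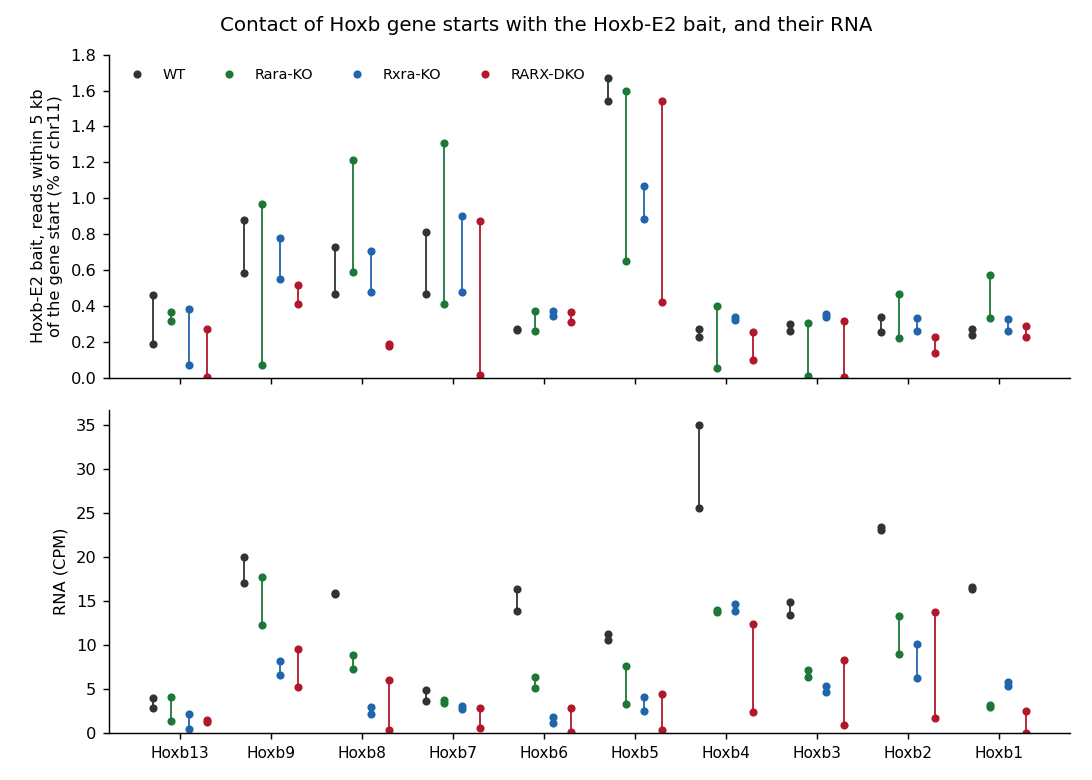
Reads of the Hoxb-E2 bait within 5 kb of each Hoxb gene start (upper panel, percent of chr11 reads) and the RNA of the same genes (lower panel, CPM, to be compared within a gene), in cluster order. Points are libraries, lines join the 2 of a genotype; RNA of Hoxb1 and Hoxb6 is low in all 3 mutants while contacts over all 8 libraries span 0.226% to 0.570% at Hoxb1 and 0.261% to 0.371% at Hoxb6.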

How the data were processed

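Processed files of 16 4C-seq libraries (2 baits, 4 genotypes, 2 replicates) and 8 RNA libraries were used. The 4C tables hold, as deposited by the authors, a read count per GATC fragment with p-values and q-values of their own; the program behind them and the restriction enzyme are not given in the sources used here. The RNA table holds raw counts per gene, as deposited by the authors. The submitters' processing notes name HISAT2 2.1.0, HTSeq 0.9.1, Bowtie2 2.3.1, DESeq2 1.18.1, MACS2 2.2.7.1 and mm10. PCR reads are not independent molecules.

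Reads were summed in 10-kb windows, 180-kb regions, single fragments and within 5 kb of gene starts over chr11. The library size was all chr11 reads. Where fragments with reads were counted in place of reads, it was the number of chr11 fragments listed in the library. Tests omitted 5 windows centred on the 10-kb window with the most reads of that bait. Features with a mean of at least 10 reads were tested per bait with edgeR 4.0.16 (quasi-likelihood, robust, 4 genotypes in 1 fit, Benjamini-Hochberg over chr11, threshold 0.05) in R 4.3.3, and with DESeq2 1.42.0 as an alternative. RNA counts were tested with edgeR, TMM and filterByExpr. Scripts were tested on simulated data. Sequences and motifs were read from RefSeq's GRCm38.p6; the fragment of the Hoxb-E2 bait is not reported here.

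Members and lists were chosen with earlier results of these data known. Named are the 10 Hoxb genes, the 5 highest and 2 lowest windows by WT mean and the 6 highest fragments per bait, and called features; the fourth window, RARX-DKO at Hoxb2, the fragments inside the Hoxb13 window, and motif and bait fragments were named after their values were seen. The fit within 1 Mb of the bait and the one on fragments of 100 bases or more were added after seeing the data. Other assays of the series were not used here.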

Additional observations from a re-analysis of the deposited data

How the results depend on the processing

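Counting fragments with reads in place of reads turned the sign of the cluster's log2 fold change to -0.12 (RARX-DKO against Rara-KO), 0.037 (Rara-KO) and 0.14 (Rxra-KO) with Hoxb-E1, and to 0.0093, 0.26 and 0.33 for RARX-DKO against Rara-KO, Rxra-KO and WT and 0.067 for Rxra-KO with Hoxb-E2. It also turned the windows of Hoxb13 (0.085), the fourth (-0.29) and Hoxb9 (0.043) in Rara-KO with Hoxb-E1, and that of Hoxb5 (0.45) in RARX-DKO with Hoxb-E2. TMM gave 0.23 (RARX-DKO) and 0.35 (Rxra-KO) with Hoxb-E1, and 0.29 (Rxra-KO) and 0.26 (Rxra-KO against Rara-KO) with Hoxb-E2. DESeq2 gave 0.30, 0.20 and 0.65 for RARX-DKO, Rara-KO and Rxra-KO with Hoxb-E1 and 0.069 for Rxra-KO with Hoxb-E2. Library sizes without the bait windows gave 0.0064 for Rxra-KO with Hoxb-E1, and -0.0058 for Rara-KO, -0.072 for RARX-DKO at the Hoxb1 start and 0.0016 for Rxra-KO against Rara-KO with Hoxb-E2. Counts of fragments with reads were scaled to the chr11 fragments listed in each library. The cause was not tested in any of these.

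DESeq2 called 891, 1086 and 1607 chr11 windows in Rara-KO, Rxra-KO and RARX-DKO with Hoxb-E1 and 1371, 1558 and 1703 with Hoxb-E2. In the cluster these were 2, 1 and 2, and 1, 0 and 1. Of chr11 fragments it called 2515, 2757 and 4840, and 3621, 4326 and 5106, with 16, 21 and 28, and 64, 29 and 96 in the cluster. With only WT and the mutant in the fit, 1 chr11 window was called in Rara-KO and 1 in Rxra-KO with Hoxb-E1, and 1 in Rara-KO with Hoxb-E2, where fragments of 100 bases or more also gave 1. The fit within 1 Mb gave 2, of which 1 was in the cluster. For Hoxb RNA, DESeq2 called 1 gene in Rxra-KO and 1 in RARX-DKO, and without the filter on low counts 3, 7 and 7 were called.

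Same-numbered replicates did not deviate together over chr11 windows (correlations of 0.021 to 0.106 with Hoxb-E1 and -0.014 to 0.008 with Hoxb-E2). Replicate 1 had more chr11 reads than replicate 2 in every genotype with either bait, so the need for a block is not settled. With the replicate block, the 2 adjoining Hoxb8 fragments of Hoxb-E2 were called in RARX-DKO, and Hoxb1 RNA in RARX-DKO no longer passed (-3.84, edgeR's adjusted p = 0.0601).

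With Hoxb-E1, leaving out 1 replicate moved the log2 fold change of the cluster between -0.12 and 0.40 (RARX-DKO against Rara-KO), -0.16 and 0.026 (RARX-DKO against Rxra-KO), -0.17 and 0.018 (RARX-DKO against WT), -0.47 and 0.050 (Rara-KO against WT), -0.058 and 0.46 (Rxra-KO against Rara-KO), -0.055 and 0.040 (Rxra-KO against WT). With Hoxb-E2, leaving out 1 replicate moved the log2 fold change of the cluster between -0.67 and -0.27 (RARX-DKO against Rara-KO), -0.46 and -0.27 (RARX-DKO against Rxra-KO), -0.53 and -0.26 (RARX-DKO against WT), -0.13 and 0.27 (Rara-KO against WT), -0.30 and 0.098 (Rxra-KO against Rara-KO), -0.15 and 0.11 (Rxra-KO against WT). At the Hoxb1 start of Hoxb-E2 in RARX-DKO it ranged from -0.18 to 0.19. Called chr11 windows ranged from 0 to 1 in Rara-KO with either bait and in Rxra-KO with Hoxb-E1, and called Hoxb starts from 0 to 1 in Rara-KO and RARX-DKO with Hoxb-E2. Called Hoxb genes in RNA ranged from 0 to 9 in RARX-DKO and from 0 to 0 in Rxra-KO. Where an arm kept 1 library, it was assumed to vary like the others. With 2 libraries per group, edgeR over chr11 detected no difference in single cluster windows.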
